A study of Mus musculus with 7 samples.

Results

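The genes described here were 10 members of the galectin and annexin families, Lgals1, Lgals3, Lgals9 and Anxa1 to Anxa7, measured by 18 probe sets among 12393 genes with a probe set of their own. They were selected on family membership with differences between the groups of these same arrays already known, Anxa3 among them. The KO minus WT values of the members are therefore descriptions, without p-values, and support no further statement. RNA came from LSK cells of mouse bone marrow (femur and tibia), the lineage-negative, Sca-1 and c-Kit positive gate that holds stem cells and early progenitors. All mice carried floxed Lkb1 (L/L), C57BL/Ka-CD45.2:Thy-1.1 was the strain, and all received tamoxifen for 5 days, with the sort 1 day later. The 4 KO samples (Lkb1 KO 4 to 7) also carried rosa26CreERT2, a tamoxifen-activated Cre expressed from the Rosa26 locus in all tissues, so deletion was not limited to blood cells. The 3 WT samples (Lkb1 WT 5 to 7) had no Cre, so loss of the kinase and presence of active Cre cannot be told apart. The labels do not say whether each sample was 1 mouse, so p-values cover only how far these samples vary, and that variation may be technical.

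Galectins are soluble lectins that bind beta-galactosides on glycoproteins, inside the cell and, once released, on the surface of neighbouring cells. Annexins bind acidic phospholipids, above all phosphatidylserine, when calcium rises, and act in membrane traffic, membrane repair and the handling of dying cells. Both families are expressed in haematopoietic cells, and several members are abundant in mature neutrophils, monocytes and macrophages.

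Of the 10 members, Lgals1, Anxa3 and Lgals9 were higher in KO and Lgals3 and Anxa1 lower, while the other 5 did not pass. All 10 had at least 1 probe set above the filter on dim signals, and 16 of the 18 probe sets lay above it. The threshold was a Benjamini-Hochberg adjusted p of 0.05 in limma over all 8077 genes tested. It was passed upward by 3 members, against 2.48% of all genes, and downward by 2, against 2.96%. In either direction it was 5 of 10 members, against 5.44% of all genes, and since the members were chosen with this contrast known nothing is read from that. KO and WT samples did not overlap for 3 members with KO above WT, against 11.4% of all genes, and for 4 with KO below WT, against 12.7%. The median difference was -0.045 log2 units over the members and -0.015 over all genes. The median size of the difference, regardless of sign, was 0.46 over the members and 0.18 over all genes.

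**Figure D1:**
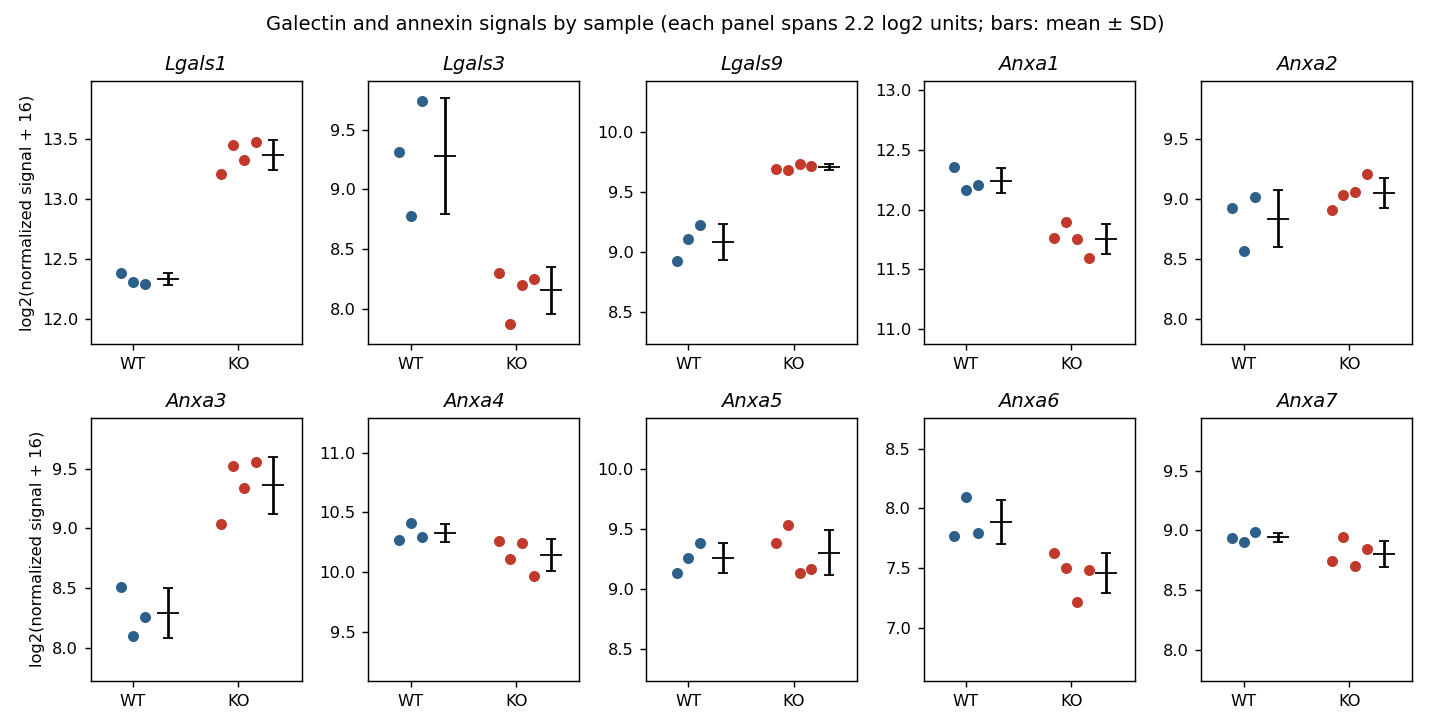
Signals of the 10 genes by sample, as log2(normalized signal + 16) for the brightest probe set of each gene, with 3 WT (blue) and 4 KO samples (red) and the mean ± SD beside each group. KO points lie above all WT points for Lgals1, Lgals9 and Anxa3, and below them for Lgals3, Anxa1, Anxa4 and Anxa6.

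Signals below are MAS5 intensities after quantile normalization across the 7 arrays, in arbitrary units. Differences are KO minus WT on the log2(signal + 16) scale with limma's standard error. For probe sets other than a gene's brightest, that error came from a separate limma fit over all non-control probe sets. Arrays compare a gene between samples, and levels of different genes are not compared. Before normalization the KO arrays were brighter, with a trimmed mean signal of 360.4 to 425.9 against 228.6 to 340.5 in WT, and the median gene was shifted upward in KO by 0.34 log2 units. Directions are therefore relative to the median gene. In the signals as deposited 1372 genes passed upward and 43 downward, and with median centring 545 and 166, against 200 and 239 after quantile normalization. The groups also differed in the Actb control ratio (3' over 5' probe sets), which rises as amplified RNA gets shorter. KO arrays had 11.4 to 12.3 and WT arrays 12.6 to 13.1, without overlap. A limma fit with this ratio as a covariate called 0 genes, members included, with 713 at an unadjusted p under 0.05. In it the differences were 1.13 for Lgals1, 0.59 for Lgals9, 1.42 for Anxa3, -1.09 for Lgals3 and -0.31 for Anxa1. Since the ratio itself separates the groups, such a fit cannot tell it apart from genotype, and nothing is read from the 0 calls. The fit without a filter on dim signals no longer called Lgals3, Lgals9 or Anxa1. Stk11, the gene of the kinase Lkb1, had signals of 70.8 to 128.7 in KO and 126.7 to 182.3 in WT. Its groups overlapped (-0.56 ± 0.19, limma adjusted p = 0.117), and whether its probe set lies in the deleted part is not known here, so it does not check the labels.

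Lgals1, which encodes galectin-1, a small galectin that pairs with itself to cross-link glycans and is known for effects on T cell survival, showed a large positive difference. Its brightest probe set read 9483, 11198, 10251 and 11433 in KO 4 to 7, against 5343, 5066 and 5007 in WT 5 to 7. The lowest KO sample lay far above the highest WT sample, and each group was tight, with log2 means of 13.37 ± 0.12 for KO (SD, n = 4) and 12.33 ± 0.050 for WT (SD, n = 3). The difference was 1.04 ± 0.10, or 2.05-fold, the 18th highest of the 8077 genes. The other probe set of Lgals1 was dimmer and gave a difference of 1.35 ± 0.13, again with no overlap. It read 1528, 1714, 1422 and 1939 in KO against 622.5, 666.6 and 614.4 in WT. In the signals as deposited the brightest probe set also separated the groups, at 10575 to 11897 in KO and 3480 to 5255 in WT. Lgals1 passed the threshold in each of the 7 fits that left out 1 sample, with differences from 0.99 to 1.11.

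Lgals9, the gene of galectin-9, a galectin with a pair of different sugar-binding domains in 1 chain that is known as a ligand of the receptor Tim-3, was also higher in KO. Its signals were 811.3, 807.5, 836.3 and 826.8 in KO 4 to 7, against 469.1, 535.4 and 581.2 in WT 5 to 7. The 4 KO samples lay within a narrow band (9.71 ± 0.023, SD, n = 4) that no WT sample reached (9.08 ± 0.15, SD, n = 3). The difference was 0.62 ± 0.10, or 1.54-fold. It was 1.05 in the signals as deposited and 0.79 with median centring. Lgals9 passed in 5 of the 7 fits without 1 sample, and did not pass without KO 7 or without WT 6. Havcr2, the gene of Tim-3, lay below the filter, at 20.4 to 37.1 deposited units in KO and 20.2 to 30.1 in WT.

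Lgals3 moved the other way. It encodes galectin-3, which joins 1 sugar-binding domain to a flexible tail rich in proline and glycine and is abundant in macrophages and other mature myeloid cells. It read 299.5, 218.1, 278.2 and 288.3 in KO 4 to 7, against 620.9, 423.5 and 839.1 in WT 5 to 7. The groups did not overlap, but WT samples were far apart (9.28 ± 0.48, SD, n = 3) beside those of KO (8.16 ± 0.19, SD, n = 4). The difference was -1.12 ± 0.22, so the signal was 2.18 times as high in WT as in KO, the 32nd lowest difference of all genes tested. Its spread within groups was larger than that of 90.3% of genes. In the fits without 1 sample Lgals3 passed in 1 of 7, the one without WT 6, with differences from -1.37 to -0.90. The groups also did not overlap in the signals as deposited, at 248.4 to 379.9 in KO and 381.0 to 625.1 in WT, where KO 4 and WT 6 were nearly equal.

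Promoter sequences are shown for the members that passed and had an entry in RefSeq's promoter table (assembly GRCm38.p6), Lgals9, Lgals3 and Anxa1, since they differ in direction. Of the 10 members 7 had an entry, while Lgals1, Anxa3 and Anxa6 did not. Each is the 250 bases before the annotated start, 5′ to 3′ on the gene's strand. Capitals mark matches, on either strand, to any of 8 motifs. The motifs, each with its share among 32851 promoters of the same length, were the TATA box (TATAAA, 12.4%), the CCAAT box (CCAAT, 33.8%) and the GC box (GGGCGG, 32.7%), the cAMP response element (TGACGTCA, 1.55%) and its first part alone (TGACG, 17.8%, which the full element contains), the PU.1 core (GAGGAA, 23.3%), the AP-1 site (TGANTCA, 6.75%) and the E box (CACGTG, 6.02%).
The Lgals9 window is chr11:78984925-78985174 on the minus strand.
Lgals9: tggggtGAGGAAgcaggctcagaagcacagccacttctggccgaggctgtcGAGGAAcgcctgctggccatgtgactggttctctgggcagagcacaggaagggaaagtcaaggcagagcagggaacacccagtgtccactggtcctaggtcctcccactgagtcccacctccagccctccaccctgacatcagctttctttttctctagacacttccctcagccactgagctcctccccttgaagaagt
The Lgals3 window is chr14:47373610-47373859 on the plus strand.
Lgals3: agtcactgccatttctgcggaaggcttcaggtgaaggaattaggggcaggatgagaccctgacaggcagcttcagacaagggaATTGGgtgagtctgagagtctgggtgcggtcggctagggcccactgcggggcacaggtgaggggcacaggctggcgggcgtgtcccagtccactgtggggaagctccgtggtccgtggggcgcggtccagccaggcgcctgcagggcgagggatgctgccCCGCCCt
The Anxa1 window is chr19:20390672-20390921 on the minus strand.
Anxa1: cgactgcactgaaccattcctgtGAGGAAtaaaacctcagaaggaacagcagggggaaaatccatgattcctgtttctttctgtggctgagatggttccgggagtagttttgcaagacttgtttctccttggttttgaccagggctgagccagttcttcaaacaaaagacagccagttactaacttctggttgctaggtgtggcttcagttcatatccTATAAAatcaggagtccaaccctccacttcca
The Lgals9 window held 2 matches to the PU.1 core, the myeloid transcription factor motif, and none to the other motifs. Lgals1, the other galectin gene higher in KO, had no window to set beside it. The Lgals3 window held 1 CCAAT box, 167 bases before the start, and 1 GC box, 7 bases before it. It was rich in G and C (66.0%) and held 13 CpG pairs, against 58.4% and 3 in Lgals9 and 46.0% and 2 in Anxa1, with medians of 52.4% and 6 over all promoters. The Anxa1 window held 1 TATA box, starting 32 bases before the start, and 1 PU.1 core. None of the 3 windows held a cAMP response element, which says only that these letters are not in them.

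Among the annexins, Anxa3 showed the largest difference. It encodes annexin A3, found in neutrophils, where it associates with granules. Its signals were 508.0, 719.0, 632.9 and 735.2 in KO 4 to 7, against 349.7, 258.0 and 290.5 in WT 5 to 7. Each KO sample exceeded each WT sample, with KO 4 the lowest of KO and WT 5 the highest of WT. The means were 9.36 ± 0.24 for KO (SD, n = 4) and 8.29 ± 0.21 for WT (SD, n = 3), and the difference was 1.07 ± 0.16, or 2.10-fold, the 12th highest of all genes tested. Anxa3 had 1 probe set, and its difference ranged from 0.97 to 1.48 over 20 settings. It passed in 4 of the 7 fits without 1 sample, and did not pass without KO 7, WT 6 or WT 7.

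Anxa1, the gene of annexin A1, a glucocorticoid-induced protein that dampens neutrophil responses through formyl peptide receptors, was lower in KO. Its signals were 3463, 3797, 3431 and 3071 in KO 4 to 7, against 5232, 4578 and 4711 in WT 5 to 7. The groups did not overlap, at 11.75 ± 0.12 for KO (SD, n = 4) and 12.24 ± 0.10 for WT (SD, n = 3). The difference was -0.49 ± 0.10, or a signal 1.41 times as high in WT. This call rested on the normalization, since the deposited signals overlapped (3250 to 4347 in KO, 3285 to 5148 in WT) with a difference of -0.13, and neither they nor median centring (-0.40) passed. Anxa1 also passed in none of the 7 fits without 1 sample, where the difference was -0.55 to -0.43.

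Anxa4 and Anxa6 had KO samples below all WT samples without passing the threshold. Anxa6, which carries a doubled set of annexin repeats and acts in endosome and membrane traffic, read 181.3, 165.1, 133.2 and 163.5 in KO 4 to 7, against 201.8, 257.3 and 206.1 in WT 5 to 7. The gap between the groups was small beside their spread, and the difference was -0.43 ± 0.13. Its second probe set gave -0.092 ± 0.22, and the remaining one, below the filter, gave 0.47 ± 0.34, so the negative difference rested on the brightest. In the signals as deposited the brightest also overlapped, at 140.0 to 230.2 in KO and 139.3 to 229.4 in WT, with a difference of -0.064. Anxa4, a regulator of membrane permeability known from secretory cells, read 989.1 to 1210 in KO and 1221 to 1346 in WT, a difference of -0.18 ± 0.10. In the signals as deposited it was 0.26, the opposite sign, and its second probe set gave 0.055 ± 0.16.

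Anxa2, Anxa5 and Anxa7 overlapped between the groups. Anxa2, the annexin that joins the S100a10 protein in a complex that binds plasminogen, gave 463.3, 508.5, 518.0 and 575.2 in KO 4 to 7, against 470.7, 363.0 and 502.9 in WT 5 to 7. WT 6 was the lowest of the 7, and the difference was 0.21 ± 0.13. In the signals as deposited Anxa2 stood at 552.6 to 606.2 in KO and 326.6 to 474.5 in WT, without overlap, and passed upward (0.63). Its second probe set gave -0.24 ± 0.43, and the dimmest did not exceed the background level of 13.64 units on any array, so it has no usable level. Anxa5, known as the probe for phosphatidylserine on dying cells, was at 543.9 to 724.2 in KO, against 544.5 to 650.2 in WT. Its difference was near 0 (0.045 ± 0.13) and changed sign between settings, from -0.031 to 0.47. Anxa7, a calcium-dependent membrane fusion protein that binds sorcin, differed by -0.14 ± 0.09 in its brightest probe set, and its dimmer ones gave -0.31 ± 0.13 and -0.51 ± 0.18. All 3 were negative, all overlapped, and the brightest gave 0.28 in the signals as deposited.

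**Figure D2:**
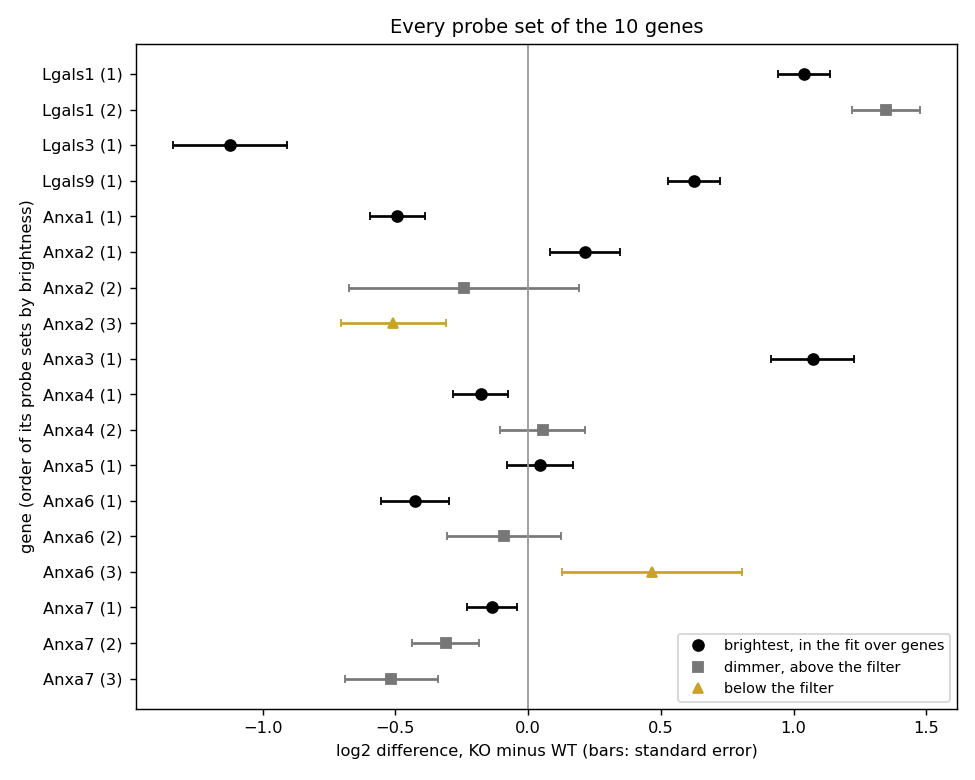
KO minus WT log2 differences (horizontal axis, bars are limma's standard error) for all 18 probe sets, ordered by gene and, in brackets, by brightness. Bars come from the fit over genes for each gene's brightest probe set, and from a limma fit over all non-control probe sets for the others. Both Lgals1 probe sets lie above 1, all 3 of Anxa7 lie below 0, and those of Anxa2, Anxa4 and Anxa6 lie on both sides of 0.

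The members also differed in how far samples of 1 group varied. The median spread within groups was 0.14 log2 units over the members and 0.17 over all genes. Ranked from the steadiest gene, Anxa7 stood at the 11.9 percentile, Lgals9 at 15.8 and Lgals1 at 17.3. Anxa3, at 69.3, and Lgals3, at 90.3, were among the more variable.

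**Figure D3:**
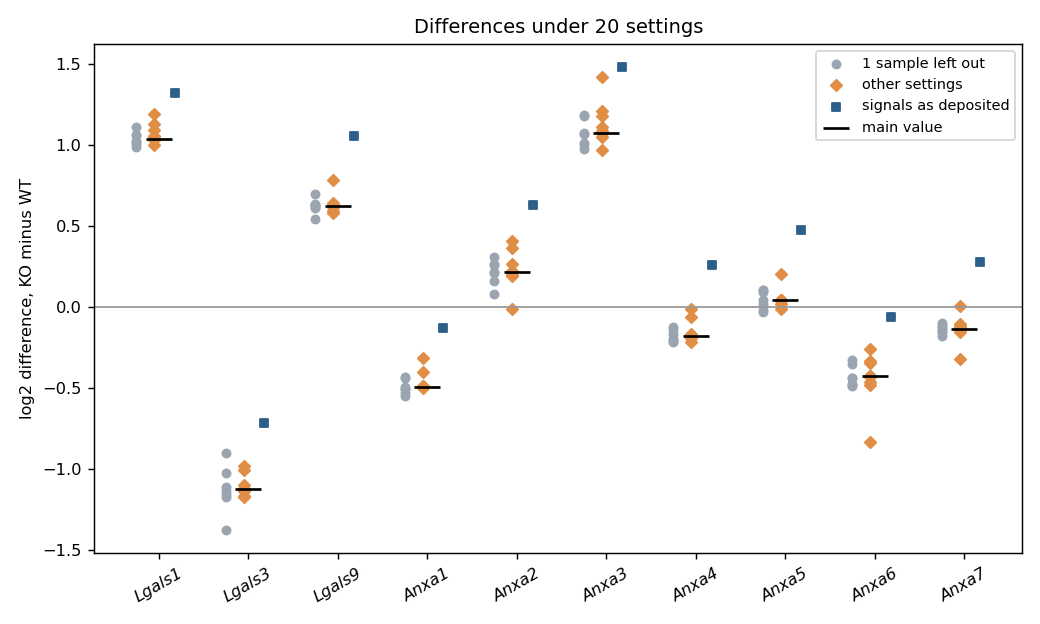
KO minus WT log2 differences of the 10 genes under 20 settings, with the main value as a black bar, 7 fits without 1 sample (grey), the signals as deposited (blue) and 11 further settings (orange). Lgals1, Lgals9 and Anxa3 stay above 0 and Lgals3, Anxa1 and Anxa6 below 0 in all 20, while Anxa2, Anxa4, Anxa5 and Anxa7 lie on both sides of 0.

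Markers of other cells moved with the groups. The summed signal of 10 measured mature granulocyte genes was 10118 to 13955 in KO, against 30913 to 43037 in WT, 3.11 times as high in WT. Each of the 10 was lower in every KO sample than in every WT sample, and none was at background on all arrays. Lgals3, Anxa1 and Anxa3 are known from such cells, of which Lgals3 and Anxa1 were lower in KO, as these markers were, and Anxa3 higher. The summed signal of 9 monocyte and macrophage genes, 5 of them higher and 4 lower, was 4616 to 6878 in KO, against 3092 to 4403 in WT. Csf1r alone, the receptor gene for the macrophage growth factor, made up 93.7% of that difference, and the sums of the other 8 overlapped, at 1179 to 1438 in KO and 1141 to 1353 in WT. Only Csf1r and Itgam of the 9 had all KO samples above WT, and Vcan had them below (-0.91). The summed signal of 6 eosinophil and mast cell genes, 5 of them higher, was 2064 to 2663 in KO, against 1473 to 1512 in WT. Cpa3, a mast cell protease gene, made up 85.8% of the difference, and the other 5 summed to 262.7 to 362.7 in KO and 141.4 to 249.9 in WT. Lower in KO were the sums of 6 genes of the LSK gate, all 6 lower (10301 to 11201 against 13154 to 14354), 6 erythroid genes, 5 lower (467.2 to 552.9 against 587.4 to 643.4), and 7 stroma and endothelium genes, 6 lower (328.5 to 428.7 against 477.9 to 744.1). Col1a2 made up 85.0% of the stroma difference, and the sums of the other 6 overlapped. In the erythroid list Hba-a2 went the other way, at 326.1 to 366.9 in KO and 240.6 to 266.7 in WT. The sums overlapped for T cell, B cell and megakaryocyte genes, and Cd3e, Cd3g, Cd79a, Pax5, Col1a1 and Prg3 were at background on all 7 arrays. Of 9 lists compared, the granulocyte, LSK gate, erythroid, stroma and eosinophil sums each had an exact permutation p of 0.0286, two-sided, the smallest this design can give (0.0514 adjusted over the 9), and the monocyte sum 0.0571 (0.0857 adjusted). In the signals as deposited the sums of 3 lists did not overlap, those of granulocyte, monocyte and eosinophil genes. The part of these markers in the galectin and annexin differences was not tested, and fewer cells of a type and less RNA per cell cannot be told apart in such samples. Of the gate's defining genes, Kit was bright on all arrays, at 1210 to 1933 deposited units, and Ly6a, which encodes Sca-1, is not analysed here. After quantile normalization Kit was lower in KO (-0.43 ± 0.099, limma adjusted p = 0.0465). It passed in 0 of 7 fits without 1 sample, and its difference in the signals as deposited was 0.012.

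**Figure D4:**
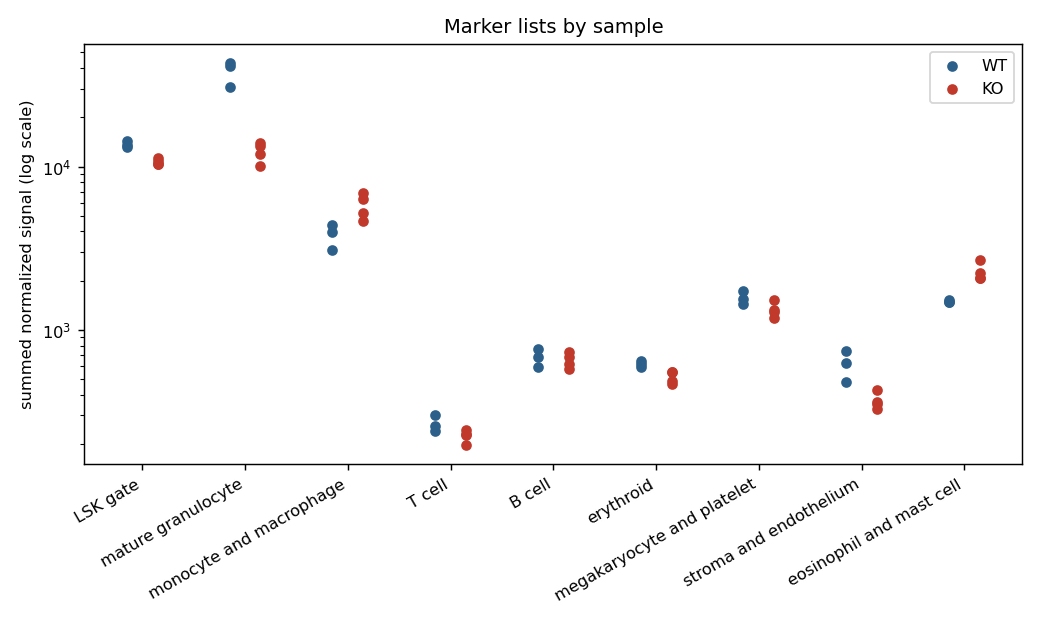
Summed normalized signal (log axis) of 9 marker lists in the 3 WT (blue) and 4 KO samples (red). The granulocyte sums of KO, 10118 to 13955, lie below those of WT, 30913 to 43037, and the eosinophil and mast cell sums lie above.

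The remaining galectins and annexins showed no call. Of 6 further galectin genes measured, Lgals8, Lgals4 and Lgalsl were above the filter, and none passed in limma, adjusted or at an unadjusted p under 0.05. Of all genes 5.44% passed and 25.3% had an unadjusted p under 0.05, so no call among so few relatives says little. Lgalsl, a galectin-related gene, was at -0.15 ± 0.10 (adjusted p = 0.400), and the 3 had a median of -0.18. Lgals2, Lgals7 and Lgals12 lay below the filter, with no deposited signal of their brightest probe sets above 42.2. Of 4 further annexin genes Anxa9 alone was tested, at 0.11 ± 0.17 (adjusted p = 0.719), with 0 at an unadjusted p under 0.05. Anxa8, Anxa10 and Anxa13 lay below the filter, and the brightest probe set of Anxa10 was at background on all 7 arrays. No test compared the members with these relatives.

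Among 9 tested binding partners of annexins 2 fell, against 2.96% of all genes, and none rose, with a median of -0.29. An unadjusted p under 0.05 in limma was reached by 2 of the 9 (22.2%), against 25.3% of all genes. The list is short and was chosen with earlier results of these data known, so nothing is read from its counts. Fpr2, the formyl peptide receptor through which Anxa1 acts, gave 66.6, 66.0, 147.8 and 96.3 in KO 4 to 7, against 668.4, 349.2 and 456.5 in WT 5 to 7. All KO samples lay below all WT samples, a difference of -2.22 ± 0.29 (limma adjusted p = 0.0129). Fpr2 is a gene of mature neutrophils and monocytes. The granulocyte sum above was also lower in KO, while the monocyte and macrophage sum was higher, mostly through Csf1r. The part of such cells in the Fpr2 difference was not tested. Ahnak, a giant scaffold protein gene that binds the complex of Anxa2 and S100a10, also fell, from 605.6 to 745.2 in WT to 378.6 to 452.3 in KO (-0.64 ± 0.11, adjusted p = 0.0230). In the signals as deposited it was at -0.22 and did not pass, and it passed in 3 of 7 fits without 1 sample. S100a10 itself, the partner of Anxa2, was at 0.21 ± 0.18 (adjusted p = 0.489), and S100a6 and S100a4 were at -0.36 ± 0.17 (adjusted p = 0.224) and -0.29 ± 0.18 (adjusted p = 0.340), named after their values were seen.

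Galectin receptors and ligands were mostly without a call, with 1 of 13 higher, against 2.48% of all genes, none lower and a median of 0.044. At an unadjusted p under 0.05 in limma there were 5 of 13 (38.5%), against 25.3% of all genes tested. KO and WT samples did not overlap for 5 of the 13. In 4 KO lay above WT, against 11.4% of all genes, and in 1 below, against 12.7%. With so few genes nothing is read from these counts. The gene called higher was Pdia4, a protein disulfide isomerase gene of the endoplasmic reticulum. Its signals were 37.2 to 64.5 in KO and 18.2 to 29.5 in WT (0.71 ± 0.16, limma adjusted p = 0.0401). Pdia4 was dim and passed in none of 7 fits without 1 sample. Whether its product binds a galectin was not tested, so its place in this list is uncertain. Among 14 glycan synthesis genes 1 fell, against 2.96% of all genes, and none rose, with a median of -0.12. An unadjusted p under 0.05 was reached by 4 of them (28.6%), against 25.3% of all genes. The gene that fell was Gcnt2, the branching enzyme of poly-N-acetyllactosamine chains, which carry galectin ligands. Its signals were 957.9 to 1245 in KO and 1804 to 1882 in WT (-0.68 ± 0.11, limma adjusted p = 0.0224). Gcnt2 did not pass in the signals as deposited (-0.24) or as the mean of its probe sets (-0.35), and passed in 2 of 7 fits without 1 sample.

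Genes that share the annexins' membrane functions gave no call. Of 10 membrane repair genes none passed in limma, adjusted or at an unadjusted p under 0.05, against 25.3% of all genes at that unadjusted level, and the median was 0.064. Capn1, the calpain gene of lowest p, was at 0.50 ± 0.22 (adjusted p = 0.211). Of 9 genes for the exposure and recognition of phosphatidylserine limma called 0, and 2 were below an unadjusted p of 0.05 (22.2%, against 25.3% of all genes), with a median of -0.11. Cd300lf, a phosphatidylserine receptor of myeloid cells, was at -0.60 ± 0.16 (adjusted p = 0.0639), with KO samples at 76.2 to 132.4 and WT samples at 143.1 to 172.4. Across all lists 4 of 59 tested genes passed (6.78%), against 5.44% of all genes.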

How the data were processed

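RNA of 4 KO and 3 WT samples of 15000 to 20000 sorted cells was amplified from about 10 ng and hybridised to 1 array each, per the labels' protocols. The deposited table holds signal intensities on a linear scale for 22690 probe sets (64 controls), made with MAS5 per the submitters' processing notes, its settings and version being not given in the sources used. This is fewer than the array design named in the labels holds, for an unknown reason. The platform annotation gave 20380 probe sets 1 symbol, 691 several and 1555 none, and only the first were named.

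Values were taken as log2(signal + 16), which understates changes of dim genes, and quantile normalized over non-control probe sets, since deposited arrays differed in brightness. Probe sets with a mean log2 value above the 40th percentile were kept, each gene by its brightest, leaving 8077 genes. The test was limma 3.58.1 (R 4.3.3) on genotype alone (Benjamini-Hochberg over all genes, threshold 0.05), tested on simulated data. The number of arrays limits the precision. Background was the 95th percentile, 13.64 units, of 189 readings from 27 control probe sets for transcripts that the sample lacks. Marker sums took each gene by its brightest probe set and used two-sided exact permutation tests.

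Members and lists were chosen with earlier results of these data known. Named were all members with every probe set, up to 4 genes past the threshold of each list or its gene of lowest p, Stk11 and Kit. S100a10, S100a6 and S100a4, Havcr2, single marker genes and some genes at or near background were named outside this rule. Alternatives covered scaling, pseudocount, filter, probe sets per gene, prior variance, array weights, replicate number as a block, the Actb ratio and leaving out each sample.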

Additional observations from a re-analysis of the deposited data

Results flagged for a closer look

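Kit, a gene that defines the LSK gate, had 1 KO sample apart from the others. It read 1399 in KO 5 against 1318, 1308 and 1323 in KO 4, 6 and 7, a gap of 0.837 of the range of the 4, above Dixon's limit at the 95% level. The WT samples read 1970, 1595 and 1863. Chance alone marks about 1 in 20 such groups, and 37 were looked at, all 18 probe sets of the members among them, of which none was marked.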

How the results depend on the processing

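Lgals1, Lgals9, Anxa3, Lgals3, Anxa1 and Anxa6 kept their sign in all 20 settings. Anxa2 was at -0.014 as the mean of its probe sets. Of the other genes named, signs turned for Kit (0.012) and Lgalsl (0.25) in the signals as deposited and for Anxa9 (-0.073) with the Actb ratio as a covariate.

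Members passing upward were 3 and downward 2 in the main values. With the signals as deposited and with median centring 1 passed downward, and without a filter, where more genes were tested, 0. With the Actb ratio 0 passed in either direction. Without 1 sample, the upward count ranged from 1 to 3, with 1 both without KO 7 and without WT 6, and the downward count from 0 to 1, with 1 without WT 6 alone.

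Genes passing upward and downward in all were 1372 and 43 as deposited, 545 upward with median centring, 326 and 374 with a pseudocount of 64, 27 and 47 without a filter, 357 upward with a filter at the 60th percentile, 460 and 455 with a trended robust prior and 0 and 0 with the Actb ratio. Without 1 sample they ranged from 8 to 76 upward and from 35 to 119 downward, lowest upward without KO 7 and downward without WT 7. In the pathway lists the main counts were 1 upward and 3 downward. They were 6 and 1 as deposited, and the downward count was 1 without a filter and 0 with the Actb ratio. The upward count was 0 with cyclic loess, a pseudocount of 64, no filter, a filter at the 60th percentile, a trended robust prior, array weights or the Actb ratio. Without 1 sample it was 0 in each fit, and the downward count ranged from 1 to 3, with 1 without KO 7 and without WT 7. Marker sums that did not overlap numbered 6, and 3 as deposited, and 6 to 7 without 1 sample. The causes of these changes were not tested. The fits without 1 sample also had fewer samples, and the fit without a filter had more genes tested.

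With the replicate number as a block, the genes passing were 0 upward and 1 downward, with 1697 at an unadjusted p under 0.05 in limma. Members passing were 0 and 0, and pathway genes 0 and 0. The block leaves less data to estimate the spread, and KO 4, alone with its number, adds nothing to the difference. Nothing is therefore read from these counts. In that fit the differences were 1.09 for Lgals1, 0.63 for Lgals9, 1.18 for Anxa3, -1.17 for Lgals3 and -0.50 for Anxa1. Same-numbered samples correlated by 0.029, 0.099 and 0.051 in their deviations, all positive but weak, and KO 5, 6 and 7 each correlated best with their own number, while WT 5 did so with KO 4. The labels give no shared origin for a number, so the pairing was not used. Signal over background limits the third probe set of Anxa2 and some of the genes below the filter, such as Anxa10. Havcr2, also below the filter, exceeded background on the 4 KO and 3 WT arrays.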
